A study of Homo sapiens with 12 samples.

Results

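The cGAS-STING pathway detects DNA in the cytosol, and it was followed here through 6 of the 39368 genes that the count tables list by symbol. The 6 genes were taken by name: CGAS and IFI16, which bind DNA, STING1, the adaptor, TBK1, the kinase, and TREX1 and SAMHD1, which limit the nucleic acids that the sensors can reach. Of these, 5 passed the filter on low counts and were tested in every comparison, and TREX1 was listed at 0 in every library. RNA-seq was performed on CAL27 and HSC3 cells, established HPV-negative lines of head and neck squamous cell carcinoma (HNSCC). Both lines carried MUC1shRNA in the tetracycline-inducible pLKO-tet-puro vector (tet-MUC1shRNA), so vehicle cells held the same uninduced vector. Vehicle cells received 0.1% DMSO and DOX cells received 500 ng/ml doxycycline, and both were kept so for 7 days. Each of the 4 groups had 3 libraries. Libraries of DOX-treated cells with a scrambled shRNA were not analysed here, so loss of MUC1 cannot be told apart from other effects of doxycycline or of the shRNA. The RNA was described as coming from cells cultured in triplicates, so p-values measure the spread between such cultures of 1 transduced population per line.

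As background, cGAS is an enzyme that makes the second messenger cGAMP when it meets double-stranded DNA. cGAMP binds STING on the endoplasmic reticulum, STING moves to the Golgi and recruits TBK1, and TBK1 phosphorylates IRF3, which then turns on type I interferon and chemokine genes. TREX1 degrades cytosolic DNA, SAMHD1 hydrolyses deoxynucleotides and acts at stalled replication forks, and loss of either is a known cause of an inherited interferonopathy. Several genes of the pathway are themselves induced by interferon, and many carcinoma lines hold low levels of STING or cGAS.

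In CAL27 cells, SAMHD1, STING1 and IFI16 were lower with DOX, TBK1 was slightly higher, and CGAS did not pass the test. In HSC3 cells, CGAS and SAMHD1 were lower with DOX and no member was higher. SAMHD1 was therefore the member called lower in both lines. STING1 also had all DOX libraries below all vehicle libraries in both lines, but in HSC3 cells it narrowly missed the threshold (edgeR adjusted p = 0.052). The responses of CGAS, IFI16 and SAMHD1 differed between the lines by the test of the difference itself. Calls are at a p under 0.05 from edgeR's quasi-likelihood test after Benjamini-Hochberg adjustment over all genes tested. SE is an approximate standard error of a log2 fold change, computed as its absolute value over the square root of the F statistic of that test. In CAL27 cells 4 of the 5 tested members were called, where 44.5% of all genes tested were called, 21.8% lower and 22.6% higher. In HSC3 cells 2 of 5 were called, where 28.4% of all genes were, 15.4% lower and 13% higher. Past a 2-fold change, SAMHD1 and STING1 were lower in CAL27 cells, against 5.11% of genes tested, and no member passed it in HSC3 cells, against 4.4%. STING1 lay close to the 2-fold line (log2 fold change -1.07, SE 0.11).

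MUC1, the target of the shRNA, had a mean level of 55.3 ± 2.79 CPM (a gene's counts relative to the TMM-scaled total of its library; SD, n = 3) in CAL27 vehicle cells and 2.98 ± 0.249 CPM in CAL27 DOX cells. In HSC3 cells its level was 1.76 ± 0.186 and 0.236 ± 0.0928 CPM, so MUC1 was already low in HSC3 cells with vehicle. Library totals ran from 92866845 to 126328662 counts in CAL27 and from 89730914 to 169065103 in HSC3 cells. Several counts could stand for 1 molecule: the estimate was 2.45 to 3.33 counts in CAL27 libraries, 4.18 to 7.43 in HSC3 vehicle libraries and 8.93 to 17.2 in HSC3 DOX libraries, with the highest in HSC3 DOX replicate 1. The share of mitochondrial counts also moved with DOX in HSC3 cells, from 5.94% to 6.51% with vehicle to 7.58% to 9.63% with DOX, and 20661 to 21243 genes had counts with vehicle against 19128 to 20910 with DOX. In CAL27 cells the mitochondrial shares overlapped, at 6.39% to 7.82% and 6.43% to 8.23%. The part of these values in the HSC3 results was not tested beyond the alternative that divides by counts per molecule. The 10 squamous markers, which include KRT5, KRT14 and TP63, were each above 1 CPM on average in every group. Their summed level went from 6847 to 7151 CPM with vehicle to 3154 to 3369 CPM with DOX in CAL27 cells, and from 6833 to 7656 to 3191 to 3773 CPM in HSC3 cells. In each line 9 of these 10 genes fell. Leukocyte markers, of interest because DNA sensors are abundant in myeloid cells, summed to at most 5.35 CPM in any library, and most of this was CD14 in CAL27 cells, while PTPRC, which defines leukocytes, had a mean of at most 0.058 CPM in any group. Fibroblast and endothelial markers summed to at most 14.1 and 15.3 CPM. Most of the endothelial sum was CDH5 in CAL27 cells, at 14.6 CPM with vehicle and 9.97 CPM with DOX (edgeR adjusted p = 6.9e-05). HSC3 vehicle libraries held at most 8 counts of CDH5. As in any bulk sample, fewer cells that express a gene and less of its RNA per cell cannot be told apart, and the part of the squamous fall in the results below was not tested.

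**Figure D1:**
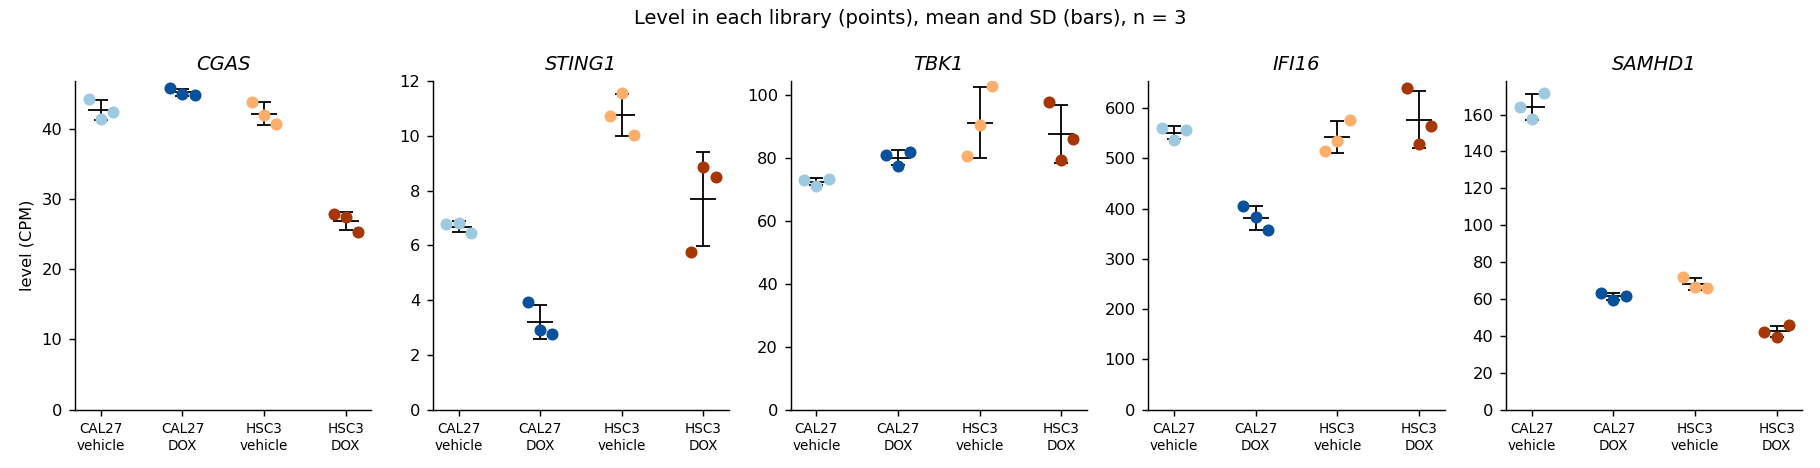
Level of each tested member in every library in CPM (points), with the mean and SD of the 3 libraries of a group (bars), each panel on its own linear axis from 0. SAMHD1 drops in both lines with DOX, CGAS drops from 42.1 to 26.8 CPM in HSC3 cells and stays between 41.4 and 45.7 CPM in CAL27 cells, and IFI16 drops in CAL27 cells.

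CGAS encodes the sensor itself and lies on chromosome 6, from 73413515 to 73452297 on the minus strand of GRCh38. In CAL27 cells its level was 44.2, 41.4 and 42.4 CPM with vehicle and 45.7, 44.95 and 44.8 CPM with DOX. The DOX libraries lay just above the vehicle libraries, and the difference did not pass the test, with a log2 fold change of 0.079 (SE 0.043, edgeR adjusted p = 0.15). In HSC3 cells CGAS was measured at 43.8, 41.9 and 40.6 CPM with vehicle and at 27.8, 27.4 and 25.4 CPM with DOX. All DOX libraries lay below all vehicle libraries, and CGAS fell to 0.635 of its vehicle level (log2 fold change -0.65, SE 0.080, edgeR adjusted p = 0.00013). Of the genes tested in HSC3 cells, 14.9% had a lower log2 fold change than CGAS. The response in HSC3 cells differed from that in CAL27 cells by -0.73 on the log2 scale (SE 0.083, edgeR adjusted p = 1.8e-05, interaction of line and DOX).

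IFI16, a nuclear and cytosolic DNA-binding protein of the AIM2-like receptor family, is on chromosome 1 from 158999968 to 159055155, plus strand. Its level in CAL27 cells was 560, 537 and 557 CPM with vehicle and 406, 382 and 358 CPM with DOX. The groups did not overlap, and IFI16 fell to 0.691 of its vehicle level (log2 fold change -0.53, SE 0.043, edgeR adjusted p = 3.2e-09). The HSC3 libraries gave 515, 535 and 577 CPM with vehicle and 640, 528 and 564 CPM with DOX. These groups overlapped and the difference did not pass the test (log2 fold change 0.085, SE 0.076, edgeR adjusted p = 0.47). The responses of the lines differed by 0.62 (SE 0.098, edgeR adjusted p = 0.00031). In GENCODE v44, 8.03% of its exon bases lie under exons of other genes on either strand.

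STING1, which encodes the adaptor STING, is on chromosome 5 from 139475533 to 139482935, minus strand, and was the member with the lowest level that was above 0. In CAL27 cells its level was 6.78, 6.81 and 6.44 CPM with vehicle and 3.92, 2.91 and 2.78 CPM with DOX, from 300 to 936 counts a library. All DOX libraries lay below the vehicle libraries, and STING1 fell to 0.477 of its vehicle level (log2 fold change -1.07, SE 0.11, edgeR adjusted p = 1.8e-07). Of all genes tested in CAL27 cells, 5.13% had a lower log2 fold change. Over the alternatives the CAL27 value ran from -1.23 to -0.969, so STING1 did not stay past 2-fold in all of them, while its call was kept. In HSC3 cells its level was 10.7, 11.6 and 10.0 CPM with vehicle and 5.74, 8.86 and 8.51 CPM with DOX. The groups did not overlap here either, but DOX replicate 1 was well below the other two DOX libraries and the change did not pass the test (log2 fold change -0.49, SE 0.17, edgeR adjusted p = 0.052). This value is close to the threshold: it was 0.021 to 0.18 over the alternatives, and 6 of the 13 passed, among them DESeq2's Wald test at an adjusted p of 0.023 and edgeR without DOX replicate 2 at 0.033. Without DOX replicate 1 the log2 fold change was -0.31 (edgeR adjusted p = 0.053), and without vehicle replicate 2 it was -0.44 (edgeR adjusted p = 0.18). Dividing each library by its counts per molecule gave a log2 fold change of -0.46 in HSC3 cells (edgeR adjusted p = 0.031). The difference between the lines, 0.58 (SE 0.23, edgeR adjusted p = 0.089), did not pass the test with all libraries. Without HSC3 DOX replicate 1 it was 0.78, with an edgeR adjusted p of 0.0018, and without CAL27 DOX library 4 it was 0.76, with an edgeR adjusted p of 0.029, in a range of 0.0018 to 0.19 over the alternatives.

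TBK1, the kinase that STING recruits, is on chromosome 12 from 64452090 to 64502114, plus strand. In CAL27 cells its level was 73.2, 71.2 and 73.2 CPM with vehicle and 81.1, 77.4 and 81.8 CPM with DOX. The DOX libraries all lay above the vehicle libraries, by a small amount: the log2 fold change was 0.14 (SE 0.039, edgeR adjusted p = 0.0059). This call was lost without CAL27 vehicle replicate 2 (edgeR adjusted p = 0.059) and in 1 fit over all 12 libraries (edgeR adjusted p = 0.27), and was 0.0031 at its lowest over the alternatives. HSC3 libraries held 80.5, 90.4 and 103 CPM with vehicle and 97.7, 79.5 and 86.1 CPM with DOX, with a log2 fold change of -0.062 (SE 0.099, edgeR adjusted p = 0.71). The HSC3 groups overlapped, and the sign of this value changed without DOX replicate 2 or without vehicle replicate 3. No difference between the responses was called (log2 -0.20, SE 0.12, edgeR adjusted p = 0.27). IKBKE, which encodes the close relative of TBK1 and was singled out after its values were seen, had 18.4 to 19.6 CPM with vehicle and 9.70 to 10.6 CPM with DOX in CAL27 cells (log2 fold change -0.94, SE 0.064, edgeR adjusted p = 2.7e-10). In HSC3 cells IKBKE had 24.1 to 27.2 and 23.7 to 28.8 CPM, and its response differed from that in CAL27 cells by 1.00 (SE 0.12, edgeR adjusted p = 3.5e-05).

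SAMHD1, the deoxynucleotide hydrolase, is on chromosome 20 from 36890229 to 36951893, minus strand. Its level in CAL27 cells was 164, 158 and 172 CPM with vehicle and 63.4, 59.5 and 61.8 CPM with DOX. The groups were far apart, and SAMHD1 fell to 0.374 of its vehicle level (log2 fold change -1.42, SE 0.042, edgeR adjusted p = 1.5e-15), with 2.92% of genes tested lower still. In HSC3 cells the level was 72.2, 66.7 and 65.9 CPM with vehicle and 42.1, 39.4 and 45.8 CPM with DOX. Here too no DOX library reached a vehicle library, and SAMHD1 fell to 0.619 of its vehicle level (log2 fold change -0.69, SE 0.080, edgeR adjusted p = 9.2e-05). The fall was smaller in HSC3 cells, by 0.73 on the log2 scale (SE 0.089, edgeR adjusted p = 3.2e-05). In HSC3 cells both SAMHD1 and CGAS kept their calls in all 13 alternatives, counts per molecule included. The vehicle level of SAMHD1 in HSC3 cells was close to its DOX level in CAL27 cells, at 68.3 ± 3.39 and 61.6 ± 1.96 CPM (SD, n = 3 each).

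**Figure D2:**
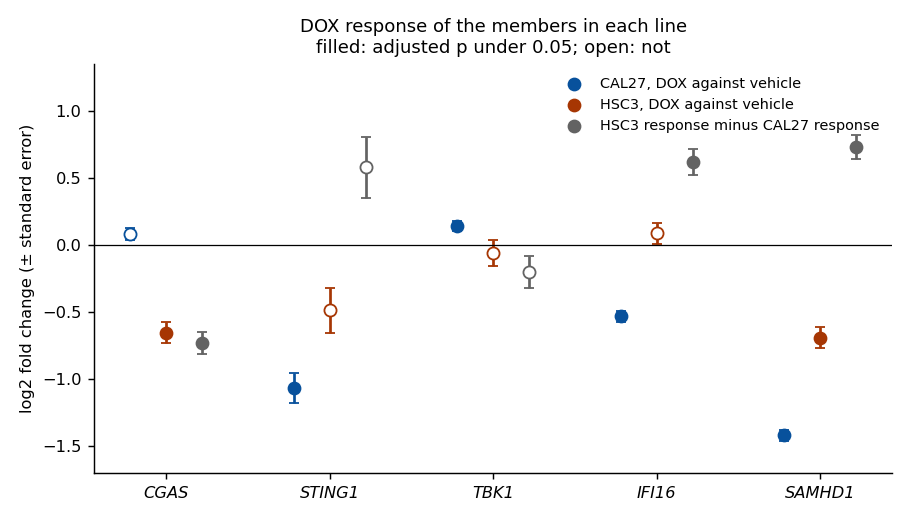
Log2 fold change of each tested member, DOX against vehicle, in CAL27 and HSC3 cells, and the difference between the responses (3 libraries a group). Bars are approximate standard errors computed from edgeR's F statistic, and filled points had an adjusted p under 0.05. SAMHD1 is filled and below 0 in both lines, and of the line responses CGAS is filled in HSC3 cells at -0.65 and IFI16 in CAL27 cells at -0.53.

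The groups did not overlap for all 5 tested members in CAL27 cells, where 51.8% of genes tested showed no overlap, and for CGAS, STING1 and SAMHD1 in HSC3 cells, where 42.6% did. The median log2 fold change of the tested members was -0.53 in CAL27 and -0.49 in HSC3 cells, beside medians of -0.0052 and -0.0097 over all genes tested. Members were chosen with earlier results of these data known, so these medians and the shares of members called are descriptions only. For the difference in response, 3 of 5 members were called, where 20.6% of all genes were, 12.3% lower and 8.25% higher in HSC3 cells: CGAS had the lower response in HSC3 cells, and IFI16 and SAMHD1 the higher.

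TREX1, the main cytosolic DNA exonuclease, had 0 counts in all 12 libraries. If each count stood for 1 molecule, a count of 0 would allow up to 3 counts, or 0.0202 to 0.0365 CPM depending on the library. With the estimates of 2.45 to 17.2 counts per molecule the limit is higher in every library. Either limit covers counting error only. TREX1 lies on chromosome 3 from 48465811 to 48467645, plus strand, and 100% of its exon bases lie under exons of ATRIP on the same strand. ATRIP, which encodes the partner of the checkpoint kinase ATR, spans 48446710 to 48467645. Among protein-coding genes whose exon bases all lie under same-strand exons of another gene, 54 of 56 had 0 counts in every library (96.4%), and the other two were GUCA1ANB and UPK3BL2. Among other protein-coding genes 1776 of 19119 did (9.29%). The 0 of TREX1 therefore gives no level for the gene, and whether reads of TREX1 were left out or counted as ATRIP was not tested. ATRIP had 6.24, 5.97 and 5.47 CPM with vehicle and 7.77, 8.50 and 8.54 CPM with DOX in CAL27 cells, and the log2 fold change was 0.49 (SE 0.085, edgeR adjusted p = 8.2e-05). In HSC3 cells ATRIP had 6.65, 8.77 and 7.74 CPM with vehicle and 9.92, 9.92 and 8.96 CPM with DOX (log2 fold change 0.31, SE 0.13, edgeR adjusted p = 0.11).

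**Figure D3:**
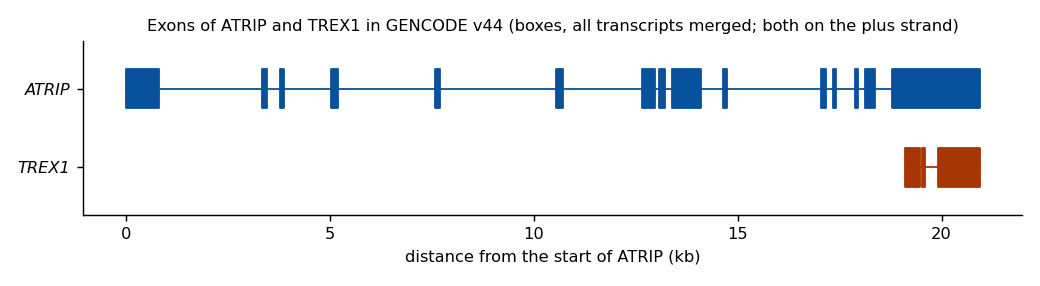
Merged exons (boxes) of ATRIP and TREX1 in GENCODE v44, drawn to scale as distance from the start of ATRIP in kb, both on the plus strand. Every TREX1 exon sits under the last exon of ATRIP.

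Start regions are shown for IFI16 and SAMHD1, because both fell in CAL27 cells with DOX and both can be induced by interferon. The sequences are from RefSeq, GRCh38.p14, 5′ to 3′ on the strand of the gene, and hold only bases outside GENCODE exons. The IFI16 stretch covers chr1:159009657-159009891, the plus strand before one of 2 listed starts, which lies inside the longer gene span of GENCODE. The SAMHD1 stretch covers chr20:36951894-36951958 on the minus strand. Capitals mark a match to TTTCNTTTC, read on the opposite strand.
IFI16 start region: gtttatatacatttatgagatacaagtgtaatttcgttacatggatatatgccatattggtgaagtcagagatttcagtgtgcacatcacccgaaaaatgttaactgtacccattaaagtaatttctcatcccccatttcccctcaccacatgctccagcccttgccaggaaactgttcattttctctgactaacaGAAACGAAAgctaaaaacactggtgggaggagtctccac
SAMHD1 start region: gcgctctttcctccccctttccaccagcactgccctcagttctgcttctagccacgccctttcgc
Of the 6 members, 4 had an entry in the RefSeq promoter table, and CGAS and STING1 had none. In the 250 bases before each start, the core of the interferon-stimulated response element (ISRE), a pair of TTTC blocks with 2 free bases between them, had 0 matches on either strand in IFI16, TREX1, SAMHD1 and TBK1, and 3.02% of 35116 promoters of the same length held it. The core of the gamma-activated site, TTCNNNGAA, also had 0 matches in these windows, and 6.57% of promoters held it. TTTCNTTTC, with 1 free base, a spacing chosen after the sequence was seen, matched once, in IFI16 at 54 bases before the start, and 2.69% of promoters held it. Counted from the far end, the 2 IFI16 windows held 250 and 235 bases before the first base under a GENCODE exon of any gene. The SAMHD1 window held 65 such bases, and those of TREX1 and TBK1 held 0. The start of the longer GENCODE span of IFI16 was not scanned. A match describes letters in a window and not a site of binding.

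Baseline levels were compared between HSC3 vehicle and CAL27 vehicle cells. With TMM scaling the median over all genes tested was -0.12 on the log2 scale, and it moved to -0.16 with DESeq2 size factors and to -0.39 with library totals. Members are therefore also given relative to that median. SAMHD1 was lower in HSC3 cells, at 68.3 ± 3.39 against 164 ± 7.03 CPM (log2 fold change -1.27, SE 0.063, edgeR adjusted p = 7.9e-11), or -1.15 relative to the median. STING1 was higher in HSC3 cells, at 10.8 ± 0.761 against 6.68 ± 0.206 CPM (log2 fold change 0.69, SE 0.16, edgeR adjusted p = 0.0014), or 0.81 relative to the median. TBK1 was higher by 0.33 (SE 0.084, edgeR adjusted p = 0.0027), or 0.45 relative to the median, but with library totals the value was 0.061 and did not pass the test (edgeR adjusted p = 0.51, in a range of 0.00020 to 0.51). CGAS and IFI16 differed by -0.018 and -0.024 on the log2 scale and were not called (edgeR adjusted p = 0.81 and 0.78). With library totals CGAS and IFI16 were called lower in HSC3 cells, both at -0.29 (edgeR adjusted p = 0.00040 and 0.00049), a value above the median of -0.39 under that scaling, and neither was called in the other alternatives. In all, 3 of 5 members were called, where 62.9% of all genes tested were, 32.3% lower and 30.6% higher. The vehicle libraries of the lines did not overlap for the same 3 members, and 74.3% of genes tested showed no overlap. Cell line, growth medium and library preparation cannot be told apart in this comparison.

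Between genes, levels were compared as CPM per kilobase of exon. With the union of all exons as the length, the order in CAL27 vehicle cells was IFI16 at 104, SAMHD1 at 15.2, CGAS at 10.2, TBK1 at 4.93 and STING1 at 1.39 CPM per kilobase. In HSC3 vehicle cells it was IFI16 at 102, CGAS at 10.1, SAMHD1 at 6.30, TBK1 at 6.20 and STING1 at 2.25, and SAMHD1 and TBK1 did not differ beyond their spread. With DOX the order in CAL27 cells was IFI16 at 72.2, CGAS at 10.8, SAMHD1 at 5.68, TBK1 at 5.44 and STING1 at 0.667 CPM per kilobase, with SAMHD1 and TBK1 not separated. IFI16 was thus the highest and STING1 the lowest of the tested members in these groups, and SAMHD1 moved from above CGAS to below it with DOX in CAL27 cells. In HSC3 DOX cells IFI16 had 109, CGAS 6.43, TBK1 5.96, SAMHD1 3.92 and STING1 1.61 CPM per kilobase, and CGAS and TBK1 were not separated. The union length of TBK1 is 14716 bases and its canonical transcript 3022 bases. With the length of the canonical transcript, chosen after the values were seen, TBK1 had 24.0 CPM per kilobase and CGAS 13.3 in CAL27 vehicle cells, so the order of the middle members depends on the length. IFI16 stayed highest and STING1 lowest with either length in all 4 groups.

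**Figure D4:**
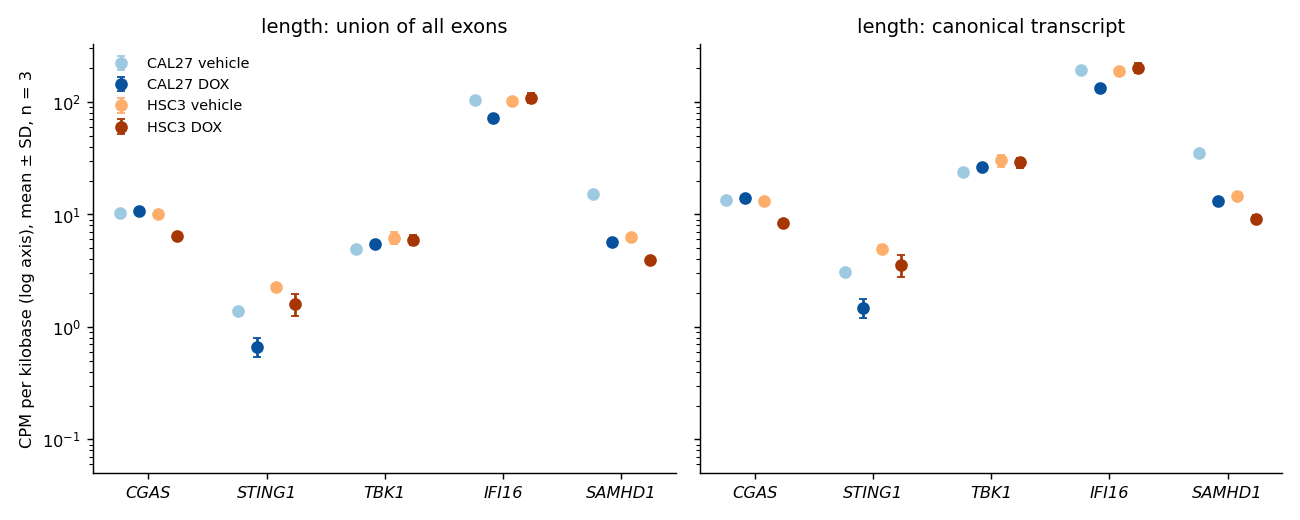
Level per kilobase of each tested member in the 4 groups (mean and SD of 3 libraries, log axis), with the union of exons (left) and the canonical transcript (right) as the length. IFI16 sits highest and STING1 lowest in both panels, and TBK1 moves above CGAS on the right.

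Profiles of the tested members were compared over the 12 libraries. The distance used was the root mean square difference of log2 CPM after each gene was centred on its own mean. It ran from 0.252 between IFI16 and TBK1 to 0.965 between STING1 and SAMHD1. The gene with the profile nearest to SAMHD1 was PLSCR1, at a distance of 0.118 (Pearson's r = 0.996), followed by MDK at 0.142. The nearest to CGAS were TOPBP1 at 0.0797 and UCHL5 at 0.0809. For IFI16 they were CFLAR at 0.0780 and HBP1 at 0.0813, for TBK1 LRRC57 at 0.0581 and CACYBP at 0.0681, and for STING1 S100A14 at 0.193 and NECTIN1 at 0.195. The median distance of a member to all genes was 0.613 to 0.933. These values describe 12 libraries that fall into 4 groups and differ in depth.

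A list of 61 other genes of the pathway gives the surroundings of the members. In CAL27 cells 57 were tested, of which 21 were called lower and 14 higher with DOX, or 61.4% where 44.5% of all genes were called. In HSC3 cells 55 were tested, 10 were lower and 2 were higher, or 21.8% where 28.4% were. The median log2 fold change of the list was -0.045 and -0.056. In 1 fit over all 12 libraries, which share 1 estimate of the spread, 19 were called in CAL27 cells (15 lower, 4 higher) and 18 in HSC3 cells (15 lower, 3 higher), so the larger number of calls in CAL27 cells did not hold in that fit.

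**Figure D5:**
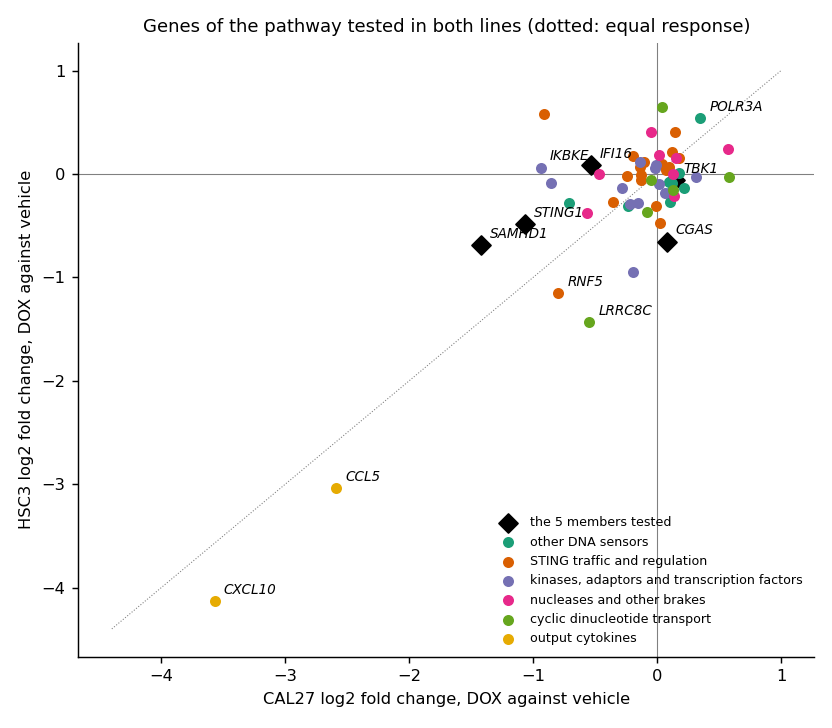
Log2 fold change with DOX in CAL27 cells (x axis) and HSC3 cells (y axis) for the 59 members and other pathway genes tested in both lines, coloured by role, with members as black diamonds and equal responses on the dotted line. CXCL10 and CCL5 lie at the lower left, and most other genes lie within 1 log2 unit of 0 on both axes.

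Among 10 other DNA sensors in CAL27 cells, 3 were lower and 5 higher, or 80% where 44.5% of all genes tested were called. In HSC3 cells 9 were tested and 44.4% were called, where 28.4% of all genes were. ZBP1, a sensor of left-handed nucleic acids, had 109 to 143 counts with vehicle and 3 to 14 with DOX in CAL27 cells (log2 fold change -3.74, SE 0.38, edgeR adjusted p = 1.0e-07). Its DOX level there rests on few molecules. HSC3 libraries held at most 10 counts of ZBP1, and it was not tested in that line. AIM2 and MRE11 were the other 2 that fell in CAL27 cells, by 0.71 and 0.24 on the log2 scale. POLR3A, the large subunit of RNA polymerase III, which transcribes AT-rich DNA into RNA, rose in CAL27 cells (log2 fold change 0.35, SE 0.041, edgeR adjusted p = 6.7e-07) and in HSC3 cells (0.54, SE 0.059, edgeR adjusted p = 5.3e-05). In HSC3 cells MRE11, XRCC5 and XRCC6 were lower, with log2 fold changes from -0.31 to -0.18. XRCC5 was higher in CAL27 cells, and its response differed between the lines by -0.37 (edgeR adjusted p = 0.00090).

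Of 17 genes of STING traffic and regulation, 7 were lower and 3 higher in CAL27 cells, and 3 lower and 1 higher in HSC3 cells. The shares called were 58.8% and 23.5%, where 44.5% and 28.4% of all genes tested were called. RNF5, a ubiquitin ligase that targets STING for degradation, was lower in HSC3 cells at 43.1 ± 3.52 CPM with vehicle and 19.5 ± 2.52 CPM with DOX (log2 fold change -1.15, SE 0.11, edgeR adjusted p = 2.3e-05), and in CAL27 cells it was lower by a log2 fold change of -0.80 (edgeR adjusted p = 3.0e-09). RNF5 has a near-identical pseudogene copy, so its counts are uncertain. SEC24C, of the coat that carries STING from the endoplasmic reticulum, rose in HSC3 cells (log2 fold change 0.41, SE 0.071, edgeR adjusted p = 0.0013), and 42.8% of its exon bases lie under exons of other genes, all on the opposite strand. STIM1, which holds STING at the endoplasmic reticulum, fell in HSC3 cells with a log2 fold change of -0.48 (edgeR adjusted p = 0.00073), and its response differed from that in CAL27 cells by -0.50 (edgeR adjusted p = 0.00038).

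Among 12 kinases, adaptors and transcription factors, 5 were lower and 1 higher in CAL27 cells: IKBKE, OPTN, TANK, RELA and IRF3 fell and CHUK rose. The share called was 50%, where 44.5% of all genes tested were called. IRF3, the factor that TBK1 phosphorylates, changed little, with a log2 fold change of -0.16 (SE 0.047, edgeR adjusted p = 0.010) in CAL27 cells and -0.28 (SE 0.13, edgeR adjusted p = 0.14) in HSC3 cells. In HSC3 cells RELA alone of the 12 was called, at -0.29 (edgeR adjusted p = 0.019), or 8.33% where 28.4% of all genes were. Of 9 nucleases and other brakes, DNASE2, DNASE1L3 and ADAR fell and RNASEH2A, RNASEH2B and BANF1 rose in CAL27 cells, or 66.7% called. In HSC3 cells 0% of the 8 tested were called. ADAR, which edits double-stranded RNA, had a log2 fold change of -0.47 in CAL27 cells (edgeR adjusted p = 3.2e-09), in HSC3 cells the value was -0.004 (edgeR adjusted p = 0.97), and the responses differed by 0.47 (edgeR adjusted p = 8.9e-05). RNASEH2A, a subunit of the RNase H2 complex, had 58 to 101 counts with vehicle and 88 to 127 with DOX in CAL27 cells (log2 fold change 0.58, SE 0.21, edgeR adjusted p = 0.033), and 53.3% of its exon bases lie under exons of THSD8 on the same strand.

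The genes that move cyclic dinucleotides across the membrane numbered 7. LRRC8C, a subunit of the volume-regulated anion channel that passes cGAMP, was at 130 to 144 CPM with vehicle and fell to 48.5 to 54.1 CPM with DOX in HSC3 cells (log2 fold change -1.44, SE 0.071, edgeR adjusted p = 2.6e-07), and in CAL27 cells by 0.55 on the log2 scale, a difference between the lines of -0.89 (edgeR adjusted p = 5.3e-06). SLC19A1, an importer of cyclic dinucleotides and folate, rose in CAL27 cells from 11.3 ± 0.0547 to 16.9 ± 0.339 CPM (log2 fold change 0.58, SE 0.061, edgeR adjusted p = 1.4e-07), and 13.9% of its exon bases lie under exons of other genes on either strand. It had 8.21 and 8.04 CPM in HSC3 cells, and the response differed by -0.61 (edgeR adjusted p = 0.0059).

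Among the output cytokines, IFNB1, the interferon that IRF3 turns on, had 0 to 19 counts in CAL27 and 0 to 16 in HSC3 libraries, was filtered out in both lines and gives no result at this depth. IFNL1 and IFNL3 had no HSC3 library above 3 counts. CXCL10, a chemokine induced by IRF3 and by interferon, dropped in CAL27 cells from 1932, 1320 and 1464 counts with vehicle to 188, 68 and 104 counts with DOX (log2 fold change -3.57, SE 0.35, edgeR adjusted p = 0.00086). The HSC3 vehicle libraries held 124, 92 and 72 counts of CXCL10, the DOX libraries held 18, 0 and 4, and it was called lower (edgeR adjusted p = 0.0054). Its fitted log2 fold change of -4.13 (SE 0.90) rests on few molecules. CCL5, a further chemokine, went from 112, 122 and 116 counts with vehicle to 18, 12 and 24 counts with DOX in CAL27 cells (log2 fold change -2.59, SE 0.28, edgeR adjusted p = 2.6e-07). The HSC3 counts of CCL5 were 54, 12 and 38 with vehicle against 0, 2 and 12 with DOX, which did not pass the test (edgeR adjusted p = 0.098).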

How the data were processed

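Poly(A) RNA of 12 cultures was made into TruSeq Stranded mRNA libraries from TRIzol extracts. The authors deposited 1 table of whole-number counts per gene for each line, not normalized. The submitters' processing notes name FastQC 0.11.9, STAR 2.7.9a, Subread 2.0.1 with featureCounts and GRCh38. The strand setting, the annotation and the handling of duplicates and of reads over 2 genes are not given in the sources used here. The CAL27 DOX columns are numbered 4 to 6, unlike their samples, and were mapped to the group alone.

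Counts were fitted in R 4.3.3 with edgeR 4.0.16 (TMM, filterByExpr at min.count 10 and min.total.count 15, robust glmQLFit and glmQLFTest). Each line was fitted alone, and all 12 libraries together for the difference in response and the baseline, with Benjamini-Hochberg adjustment over 19239 (CAL27), 18021 (HSC3) and 20694 genes. CPM values use TMM factors over all 12 libraries. The counts that 1 molecule gave were read from the share of genes with 8 to 16 expected counts that had none. The fits were tested on simulated data. An exact permutation of 3 against 3 libraries cannot give a p below 0.1, so none was used. Of the 66 pairs of libraries, none was a duplicate: 0.289% to 1.37% of genes with a summed count of at least 20 had equal counts.

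Members and lists were chosen with earlier results of these data known. Genes named are the 6 members, MUC1, in each line the 3 called pathway genes with the largest change in each direction, those with no library above 3 counts, and the 2 genes nearest to each member's profile. Other names were chosen after their values were seen. Deviations from the group mean were little correlated between same-numbered HSC3 vehicle and DOX libraries (r = -0.024, 0.028 and -0.0039). With 3 libraries a group, these values cannot show whether the cultures were paired. Alternatives were DESeq2 1.42.0, its size factors, library totals, no filter, counts per molecule, 1 fit over all libraries, each library left out and, added after the data were seen, canonical transcript length. Exons are those of GENCODE v44.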

Additional observations from a re-analysis of the deposited data

Results flagged for a closer look

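The response of 3 members to DOX differed between the lines by the interaction of line and DOX in edgeR. CGAS responded lower in HSC3 cells by -0.73 on the log2 scale (edgeR adjusted p = 1.8e-05), with all 3 HSC3 DOX libraries below all vehicle libraries. IFI16 responded higher in HSC3 cells by 0.62 (edgeR adjusted p = 0.00031), where the HSC3 groups overlapped and the CAL27 groups did not. SAMHD1 fell in both lines and by less in HSC3 cells, a difference of 0.73 (edgeR adjusted p = 3.2e-05). MUC1 itself differed in its response between the lines by 1.36 (edgeR adjusted p = 0.0010), from unequal starting levels. MUC1 had 16 to 46 counts in the HSC3 DOX libraries, so the HSC3 side of this difference rests on few molecules.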

How the results depend on the processing

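The 5 tested members gave 20 log2 fold changes, which were recomputed 305 times under the alternatives. Direction and side of the threshold were kept in 287, a call was lost in 3, a call was gained in 12, and the sign changed in 3 values that were not called. IFI16 at baseline was 0.0020 without HSC3 vehicle replicate 1 and -0.081 to 0.0020 with each library left out, and TBK1 in HSC3 cells was 0.0016 without DOX replicate 2 and -0.14 to 0.038 with each left out, the highest without vehicle replicate 3. In 1 fit over all 12 libraries 19 pathway genes were called in CAL27 cells, against 35, and 26 to 34 were called with each library left out. That fit called 3 members in CAL27 cells and 3 in HSC3 cells, all lower, against 4 and 2 with each line fitted alone. The share of all genes called in that fit is not given here. Members called for the difference in response numbered 3 to 5 with each library left out, and 5 without HSC3 DOX replicate 1, when STING1 and TBK1 (edgeR adjusted p = 0.0018 and 0.050) joined. Levels moved by up to 10.8% with library totals. In these results the cause was not tested. HSC3 DOX replicate 1 also had the most counts per molecule and the lowest STING1 level of the HSC3 DOX libraries. With the replicate block in HSC3, 2 members and 11 pathway genes were called, and 4478 genes against 5124 without it; the block changed no call of a member, and not every library correlated best with its own number. No paired analysis was possible for CAL27 cells because the columns of the DOX libraries carry other numbers.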
